A study of Mus musculus with 14 samples.

Results

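The genes of the G1 decision to divide were followed in primary mouse oligodendrocyte precursor cells between Day0 and Day3 of culture and as single genes were knocked down. The 9 genes are the D-type cyclins Ccnd1, Ccnd2 and Ccnd3, their kinases Cdk4 and Cdk6, the Cip/Kip inhibitors Cdkn1a (p21), Cdkn1b (p27) and Cdkn1c (p57), and the Ink4 inhibitor Cdkn2c (p18). They were taken by gene symbol from a table of 23427 genes and 14 RNA-seq libraries, and all 9 were found. The libraries form 7 groups of 2. The cells were wild type C57BL/6J precursors, panned with a Pdgfra antibody from the pooled cortices of 3 pups at postnatal day 7. Day0 marks the precursors before differentiation. The methods describe differentiation as removal of PDGF-AA with addition of the thyroid hormone T3, but they do not repeat this for the transfected cultures, and the sample labels give a serum medium for all groups, so the medium of each Day3 group is not certain. The methods also name 2 sequencers and read lengths, 1 for a differentiation series and 1 for the knockdowns. All 14 libraries, Day0 among them, were deposited together as the knockdown series, for which the methods name 1 sequencer and read length. The labels do not give the run of each library, so the part of sequencing run in the step from Day0 to Day3 was not tested. The Day3 groups were non-treated, mock, NC siRNA #1, NC siRNA #2 (negative controls), siSbp2l against Secisbp2l, and siPdgfra against Pdgfra, the PDGF receptor that also served to pan the cells. Each library reads a whole culture, transfected and untransfected cells together.

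D-type cyclins bind Cdk4 or Cdk6, and the active pair phosphorylates the retinoblastoma protein family, which frees E2F factors to switch on genes for DNA replication. Mitogens such as PDGF keep D-type cyclins high in precursors, whereas Cip/Kip proteins bind cyclin and kinase pairs and block Cdk2, and Ink4 proteins bind Cdk4 and Cdk6 directly. In oligodendrocyte precursors p27 is known to build up before the cells leave the cycle, and much of its control lies in protein stability, which RNA does not show.

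2 stretches of regulatory sequence and 1 primer pair of the study are shown as background to these genes. RNA levels given here were not measured at the promoters, and no PCR data of these primers were used. The Cdk4 promoter is shown because Myc, which binds the E-box CACGTG, is a known activator of Cdk4, and the Myc transcript is described with the factors further on. RefSeq promoters of GRCm38.p6 (mm10) were found for 6 of the 9 genes, with no entry used for Ccnd1, Ccnd2 and Cdkn1c. The 250 bases before the Cdk4 start site (chr10:127063285-127063534, plus strand, 5′ to 3′) held CACGTG 4 times, in capitals:
Cdk4: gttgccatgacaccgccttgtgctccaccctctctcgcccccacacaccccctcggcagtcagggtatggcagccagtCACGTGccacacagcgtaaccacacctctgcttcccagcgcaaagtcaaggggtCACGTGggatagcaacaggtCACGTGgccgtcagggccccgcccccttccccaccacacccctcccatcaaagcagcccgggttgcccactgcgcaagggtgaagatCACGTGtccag
Of 19602 promoters of this length, 6.86% held at least 1 CACGTG on either strand, and 4 promoters (0.0204%) held 4 or more. Among the other members with an entry, only the Cdk6 promoter held one, at position -220 from its start site. The other motifs searched were AP-1 TGANTCA (6.29% of promoters), CRE TGACGTCA (2.0%), Tcf/Lef CTTTGAA or CTTTGTT (8.06%), E2F TTTGGCGC, TTTCCCGC, TTTCGCGC or TTTGCCGC (2.33%) and FOXO TGTTTAC (2.59%), and of these the FOXO letters alone were found, in Ccnd3 at -243. The Cdkn1a stretch is shown because Cdkn1a is the classical p53 target. The paired p53 core CATGNNNNNNCATG, chosen after the sequence had been read, stood 48 bases before the first of its 2 start sites (chr17:29090916-29090959, plus strand, core in capitals):
Cdkn1a: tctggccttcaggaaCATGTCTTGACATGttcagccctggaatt
This core was in 0.403% of the 19602 promoters, and a longer p53 consensus, searched only as paired half-sites with no spacer, was in 0 of them. A match of letters is a description and not a site shown to be bound. Primers designed for a PCR of Ccnd1 are shown because they place that readout in the gene:
ccnd1_F: gcgtaccctgacaccaatctc
ccnd1_R: ctcctcttcgcacttctgctc
The forward primer lies in coding exon 1 (chr7:144939628-144939648) and the reverse primer in coding exon 2 (chr7:144938073-144938093) of the 5 exons of Ccnd1 on the minus strand, and they bound an amplicon of 183 bases.

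Expression was deposited as FPKM, that is fragments scaled to exon length and to the library total. Levels can thus be compared between genes as far as those exon lengths hold. The library totals, worked back from the smallest steps of the values, ran from 6560836 fragments (NC siRNA #2 replicate 2) to 31621250 (Day0 replicate 1), with a median of 20533364. The 2 non-treated libraries stood apart. Their log2 values differed with an SD of 0.457 over genes against 0.148 to 0.2 in the other pairs, and they differed by 0.917 in Ccnd3, 0.636 in Cdk4 and 0.482 in Cdkn1a, so mock values are given beside non-treated ones in the comparisons with Day0. The targeted genes fell in the groups named for them: Secisbp2l averaged 3.87 FPKM in siSbp2l against 138 to 250 in the Day3 controls, and Pdgfra measured 3.30 and 2.69 FPKM in siPdgfra against means of 32.5 to 67.4. The precursor list was present at Day0 (7 of 7 genes, summed level 1310 to 1390 FPKM), and the oligodendrocyte list summed to 727 to 807 FPKM at Day0, 6730 to 10000 in the Day3 controls, 2670 to 2850 in siSbp2l and 5050 to 5800 in siPdgfra. Of other cell types, 5 of 6 microglial genes and all 4 endothelial and all 4 fibroblast and pericyte genes had group means under 1 FPKM in every group. The astrocyte list went from 33.8 to 36.1 FPKM at Day0, with Gfap under 1, to between 74.6 and 135 in the Day3 controls, 89.3 to 89.8 in siSbp2l and 37.6 to 38.3 in siPdgfra, with Aqp4 and Gja1 under 1 in every group. The neuron list was mostly Tubb3 and summed to 27.6 to 29.5 FPKM at Day0 and 48.2 to 277 at Day3. In such mixed cultures fewer cells of a type and less RNA per cell cannot be told apart.

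Levels of the 9 genes spanned a wide range, and 3 of them were close to absent. Cdk4 was the most abundant at Day3, with 176 to 274 FPKM in the 12 Day3 libraries, and at Day0 it stood with Ccnd1 between 304 and 379. Cdk6, the alternative partner of the D-type cyclins, was listed at 0 in 10 of 14 libraries and reached at most 0.081 FPKM, or about 4 fragments. Where it was at 0, a limit of 3 fragments allowed up to 0.054 to 0.185 FPKM, counting error only. The Cdk6 exons of the deposited table span 2470 bases, whereas the union of its GENCODE exons spans 13989, so fragments from the unlisted exons did not enter this value. Cdkn1c stayed between 0 and 0.368 FPKM, with about 15 fragments at most. Ccnd2 was low but followed an order: 0.657 and 0.508 FPKM at Day0 (about 120 and 66 fragments), 0.208 to 0.252 in the non-treated and mock libraries, 0.0439 to 0.238 with the NC siRNAs, 0.0513 and 0.0559 in siSbp2l, and 0.0971 and 0.147 in siPdgfra. Both Day0 libraries lay above all 12 Day3 libraries, and the siSbp2l libraries lay below 7 of the 8 controls. These 3 genes did not reach 1 FPKM in 2 libraries and were tested only in the alternative with no filter on low values.

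**Figure D1:**
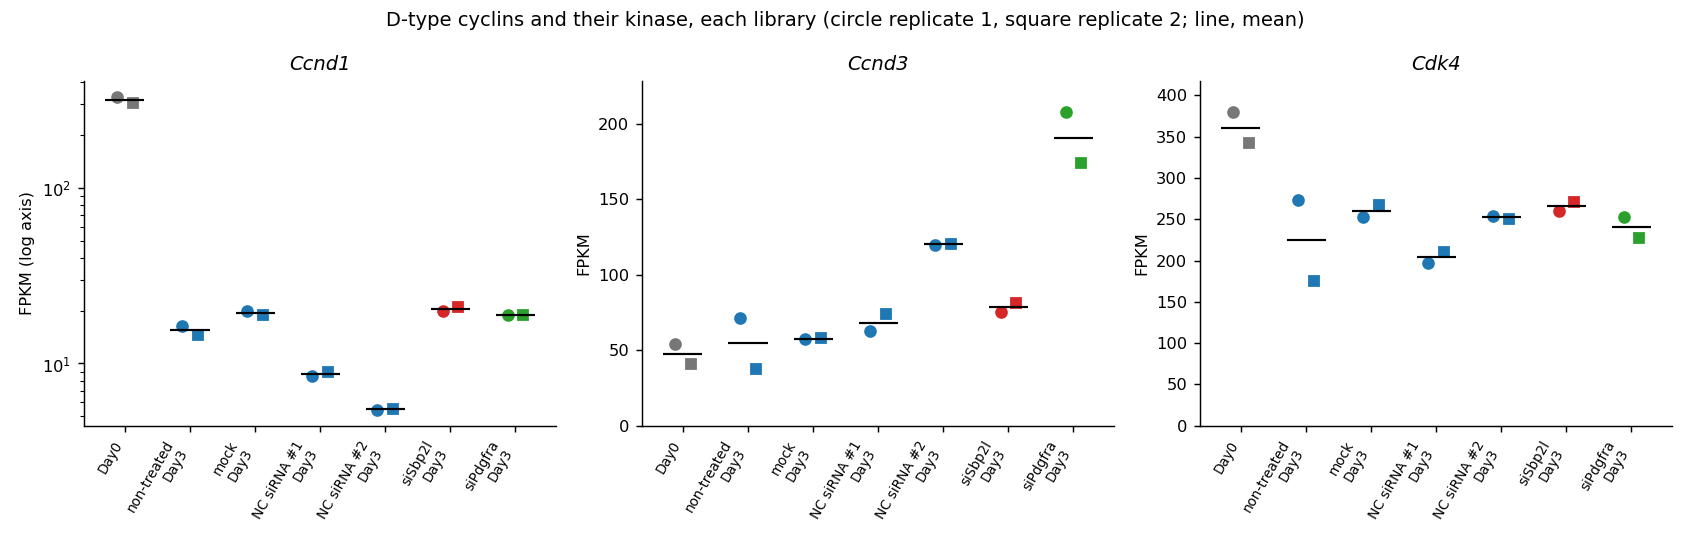
FPKM of Ccnd1 (log axis), Ccnd3 and Cdk4 (linear axes from 0) in each of the 14 libraries, with a line at the mean of each group of 2. Ccnd1 falls from 304 and 329 at Day0 to between 5.43 and 20.9 at Day3, Ccnd3 is highest in siPdgfra, and Cdk4 stays between 176 and 379.

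The step from Day0 to Day3 went with a steep fall of Ccnd1, a smaller fall of Cdk4 and no change of Ccnd3 that passed the test. Ccnd1, the cyclin that most directly reads mitogen signalling, measured 329 and 304 FPKM at Day0, 16.3 and 14.5 in the non-treated libraries and 19.96 and 18.8 in mock. No Day3 library came near the Day0 range. The fall was 19.3-fold in non-treated cells (log2 change -4.27, SE 0.0887, adjusted p = 3.17e-11) and 15.6-fold in mock (-3.96, adjusted p = 4.95e-11). Changes are on the scale of log2(FPKM + 1), and tests are limma fits over all genes with Benjamini-Hochberg adjustment. Ccnd3, the cyclin that many cells hold on to after they stop dividing, measured 53.9 and 41.0 FPKM at Day0, 71.7 and 37.5 in non-treated and 57.3 and 58.3 in mock. These groups overlapped, and the change was 0.14 (95% interval -0.388 to 0.666, adjusted p = 0.624) in non-treated and 0.29 (-0.236 to 0.818, adjusted p = 0.303) in mock. The Ccnd3 gene overlaps the antisense gene Bysl, and the strand setting of the counting was not given in the sources used here. Cdk4 fell far less than Ccnd1, from 379 and 342 FPKM to 274 and 176 in non-treated (-0.71, adjusted p = 0.00281) and to 253 and 267 in mock (-0.47, adjusted p = 0.0275). Both Day0 libraries lay above all Day3 libraries, but the mock call did not survive leaving out any 1 of its 4 libraries (adjusted p from 0.0503 to 0.137).

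Among the inhibitors, Cdkn1a rose and Cdkn2c fell, while Cdkn1b did not pass the test. Cdkn1a measured 10.5 and 10.0 FPKM at Day0, 32.4 and 22.9 in non-treated and 31.2 and 30.5 in mock. All 4 Day3 values lay above both Day0 values, and the rise was 2.5-fold in non-treated (1.32, SE 0.136, adjusted p = 6.09e-06) and 2.83-fold in mock (1.499, adjusted p = 2.22e-06). Cdkn2c, which binds Cdk4 and Cdk6 without a cyclin, measured 19.0 and 16.9 FPKM at Day0 against 4.73 and 6.31 in non-treated and 5.52 and 5.17 in mock, a fall of 2.93-fold (-1.55, adjusted p = 4.14e-06) and 2.99-fold (-1.58, adjusted p = 3.55e-06). At Day3 its 12 values stayed between 4.73 and 7.10 FPKM in all 6 groups. Cdkn1b, the inhibitor best known from the exit of these precursors from the cycle, measured 54.5 and 48.6 FPKM at Day0, 46.9 and 47.8 in non-treated and 48.9 and 47.3 in mock. Its change was -0.12 (95% interval -0.303 to 0.0658, adjusted p = 0.23) in non-treated and -0.09 (adjusted p = 0.339) in mock. Of the 6 genes tested, 4 passed at adjusted p under 0.05 in each comparison (1 higher, 3 lower), where 67.0% of all 11874 genes passed in non-treated and 66.3% in mock. With a change of at least 2-fold as well, 3 passed in each, where 26.6% of all genes did in non-treated and 26.2% in mock. Both comparisons share the Day0 libraries. The median change over the 6 genes was -0.416 and over all genes -0.116 in non-treated, and taken relative to the latter the change of Ccnd1 was -4.15.

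**Figure D2:**
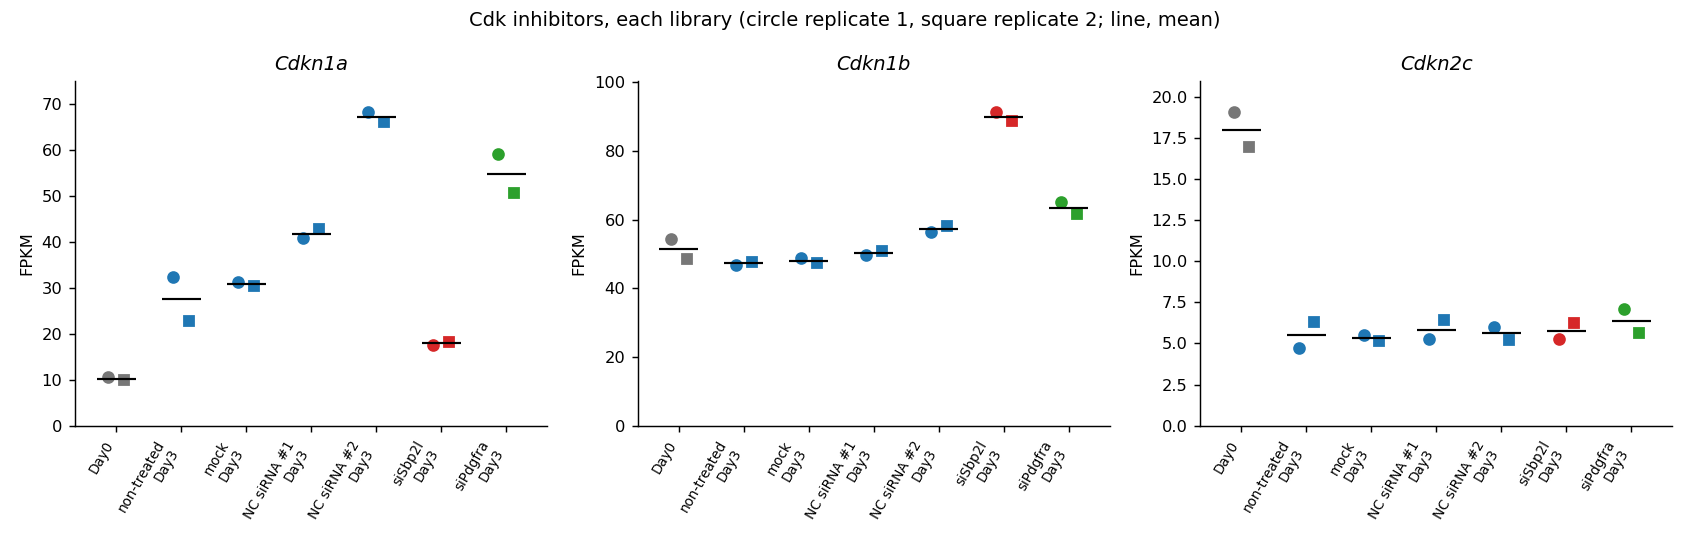
FPKM of Cdkn1a, Cdkn1b and Cdkn2c in each of the 14 libraries, on linear axes from 0, with a line at the mean of each group of 2. Cdkn1a lies lowest at Day0 and, among the Day3 groups, in siSbp2l, Cdkn1b is highest in siSbp2l at 88.8 and 91.3, and Cdkn2c separates Day0 from Day3 only.

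Genes that act with and after these members moved strongly between Day0 and Day3. All 22 listed S phase and mitosis genes fell in non-treated cells (median change -3.76) and in mock (-3.65), where 38.6% and 36.6% of all genes were lower and 28.4% and 29.7% higher. Ccnb1, the mitotic cyclin, went from 160 to 7.56 FPKM in non-treated cells (-4.23) and 8.07 in mock, Rrm2, a ribonucleotide reductase subunit, from 160 to 7.62 (-4.22) and 8.34, and Mki67, the proliferation marker, from 111 to 5.61 (-4.09) and 5.87. Of 13 Rb and E2F genes 8 fell and 4 rose in non-treated cells, and 8 fell and 3 rose in mock. The repressor E2f7 (-3.41 in non-treated, -3.17 in mock), the Rb relative Rbl1 (p107, -3.12 and -3.21) and the activator E2f2 (-2.01 and -1.99) fell in both. The Rb relative Rbl2 (p130, 0.58 and 0.415), which is typical of resting cells, and E2f8 (0.55 and 0.91) rose in both. Rb1 itself rose in non-treated cells (0.64, adjusted p = 0.0151) but did not pass in mock (0.385, adjusted p = 0.111). Of 13 other G1 genes 7 fell in non-treated cells and 8 in mock. In non-treated cells these were led by the Cdk binding proteins Cks2 (-3.48) and Cks1b (-2.74) and by Skp2 (-2.40), which marks Cdkn1b protein for degradation. The 2 that rose were Fbxo4 (0.66 in non-treated, 0.61 in mock), an F-box protein linked to cyclin D1 turnover, and Cdk7 (0.34 and 0.32), a kinase that activates other Cdks. Of the 3 other inhibitors tested, Cdkn3, a Cdk phosphatase (-2.52 and -2.32), and Cdkn2a, the locus of p16 and Arf (45.0 FPKM at Day0, 13.9 and 21.3 at Day3), fell in both. Cdkn2d (p19) fell in non-treated cells (-0.64, adjusted p = 0.018) and did not pass in mock (-0.315, adjusted p = 0.202).

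Listed p53 targets other than Cdkn1a did not share one direction. Of 13 tested, 6 rose and 5 fell against Day0 both in non-treated cells (46.2% and 38.5%, median 0.248) and in mock (median 0.323), where 28.4% of all genes were higher and 38.6% lower in non-treated cells. There Trp53inp1 rose from 3.76 to 44.8 FPKM (3.23), Gadd45a from 5.20 to 29.8 (2.29) and Bbc3, the pro-apoptotic Puma gene, by 2.28, while Plk2 fell by 3.40, the antiproliferative gene Btg2 by 1.83 and Aen by 1.25. Of 14 transcription factors known to act on these genes, 9 fell and 3 rose in non-treated cells (64.3% and 21.4%), and 7 fell and 2 rose in mock (where 36.6% and 29.7% of all genes did). In non-treated cells Myc fell from 92.6 to 20.5 FPKM (-2.15), Trp53 itself from 68.2 to 25.4 (-1.41) and Mycn from 3.92 to 1.11 (-1.24). The Wnt pathway factor Tcf7l2 rose from 8.33 FPKM to 59.0 in non-treated cells (2.69) and by 2.71 in mock. Of the forkhead factors, known activators of Cdkn1b, Foxo3 rose in both (1.44 and 1.88), whereas Foxo1 rose in non-treated cells (0.34, adjusted p = 0.00858) and did not pass in mock (0.11, adjusted p = 0.333).

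Levels of 3 members, Ccnd1, Cdkn1a and Ccnd3, differed among the Day3 controls, between cultures with and without a negative control siRNA. Ccnd1 measured 8.43 and 8.96 FPKM with NC siRNA #1 and 5.43 and 5.54 with NC siRNA #2, below all 4 libraries without siRNA (14.5 to 19.96). Against the mean of non-treated and mock the NC siRNAs lowered Ccnd1 2.31-fold (-1.21, SE 0.0667, adjusted p = 3.3e-06). Cdkn1a moved the other way, to 40.8 and 42.8 FPKM with NC siRNA #1 and 68.2 and 66.1 with NC siRNA #2, above all 4 libraries without siRNA (0.85, SE 0.102, adjusted p = 0.000259). Ccnd3 measured 62.4 and 73.9 with NC siRNA #1 and 119.9 and 120.3 with NC siRNA #2, a rise of 0.71 (adjusted p = 0.0107) in which NC siRNA #1 overlapped the non-treated range. Against mock alone, an alternative added after the data were seen, the rise of Ccnd3 was 0.64 with adjusted p = 0.062. In all, 3 of the 6 genes passed, where 28.1% of all 11650 genes did, and 1 of them, Ccnd1, was also past 2-fold, where 1.28% of all genes were. Mock against non-treated gave no pass among the 6 (Ccnd1 0.31, adjusted p = 0.194).

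The 2 negative control siRNAs also differed from each other. In NC siRNA #1 against NC siRNA #2 Ccnd1 was higher (0.58, adjusted p = 0.00166), and Cdkn1a (-0.67, adjusted p = 0.0084) and Ccnd3 (-0.81, adjusted p = 0.0347) were lower. That is 3 of 6 genes where 21.0% of all genes passed, and 0 of 6 at 2-fold or more, where 3.99% were called by limma. Leaving out any of 10 of the 12 Day3 libraries, all but the 2 non-treated ones, ended the call of Ccnd3 (adjusted p from 0.0512 to 0.208), and that of Cdkn1a ended without replicate 1 of either group (0.0699 and 0.0603). The S phase and mitosis list moved with Ccnd1 here: 21 of 22 genes were lower in the NC siRNAs than in the libraries without siRNA (median -1.16), where 11.8% of all genes were lower, and Mki67 averaged 5.61 FPKM in non-treated, 5.87 in mock, 0.794 with NC siRNA #1 and 1.62 with NC siRNA #2. The p53 list had 1 of 13 genes higher and 1 lower (median -0.00179). Other values that differed between the 2 NC siRNAs were the oligodendrocyte list sum (9720 to 10000 against 6730 to 7070 FPKM) and the depth (18481293 and 6560836 fragments with NC siRNA #2), and their part in these differences was not tested.

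**Figure D3:**
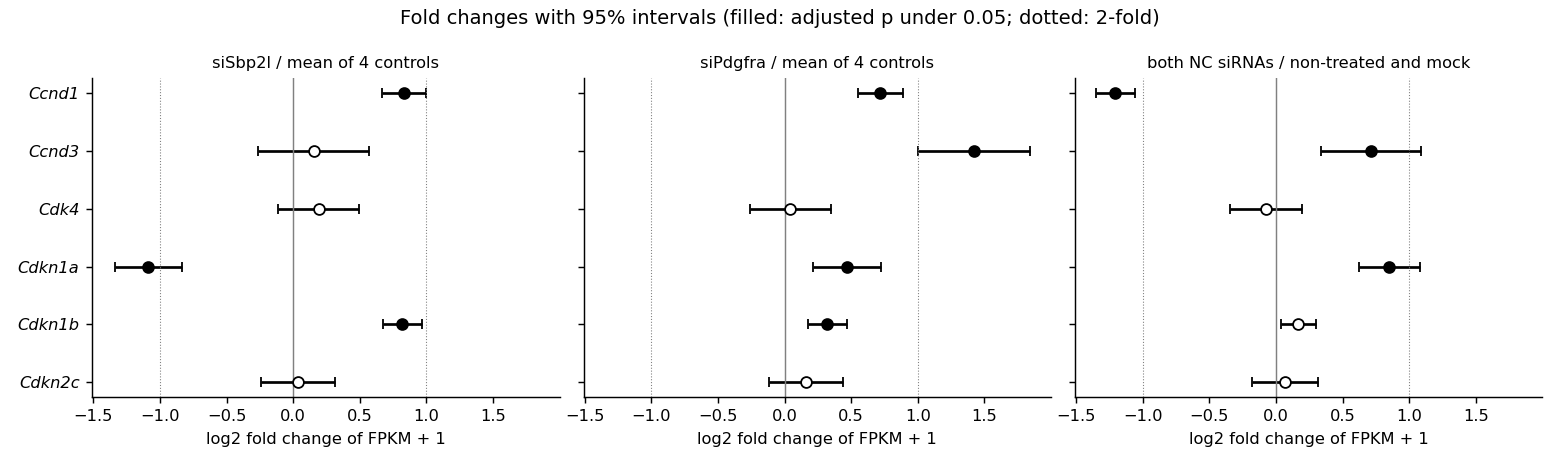
Log2 fold change of FPKM + 1 with its 95% interval for the 6 genes tested, in siSbp2l and in siPdgfra against the mean of the 4 Day3 controls and in both NC siRNAs against both groups without siRNA. Filled points have adjusted p under 0.05: Cdkn1a is lower in siSbp2l (-1.09) and higher in the other 2 panels. Ccnd1 is higher with either knockdown against a mean that includes the NC siRNAs, and it is lower with the NC siRNAs.

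With siSbp2l the Cip/Kip inhibitors moved in opposite directions. Sbp2l, or Secisbp2l, is a relative of the protein that recodes UGA to selenocysteine, and it rises as these cells differentiate. Cdkn1a measured 17.7 and 18.1 FPKM, below all 8 control libraries (22.9 to 68.2) and above both Day0 libraries. Against the mean of the 4 control groups, each with equal weight, it fell 2.13-fold (-1.09, SE 0.114, adjusted p = 3.42e-05), and it passed against each control alone, by -0.58 (non-treated), -0.75 (mock), -1.18 (NC siRNA #1) and -1.85 (NC siRNA #2). Cdkn1b measured 91.3 and 88.8 FPKM, above every other library of the series (46.9 to 65.2). It rose 1.76-fold (0.82, SE 0.0659, adjusted p = 5.41e-06), and its 4 single comparisons were closer together, from 0.65 against NC siRNA #2 to 0.91 against non-treated, with the highest adjusted p at 0.000199. The median of all genes stood at 0.151 in this comparison, and relative to it the changes were -1.24 for Cdkn1a and 0.668 for Cdkn1b.

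Ccnd1 rose by 0.83 with siSbp2l (SE 0.0746, adjusted p = 1.09e-05), but its 2 libraries, 19.9 and 20.9 FPKM, met the mock values. With mock as the control the change was 0.07 (95% interval -0.138 to 0.283, adjusted p = 0.563), and with non-treated cells 0.38 (adjusted p = 0.00717). Set beside the negative control siRNAs it was 1.14 for #1 (adjusted p = 9.49e-06) and 1.72 for #2 (adjusted p = 1.55e-06). Ccnd3 at 75.5 and 81.5 FPKM and Cdk4 at 261 and 271 lay within or close to the control range and did not pass (0.15, 95% interval -0.263 to 0.571, and 0.19, -0.113 to 0.497). Without non-treated replicate 1 they did, at 0.268 (adjusted p = 0.00883) and 0.271 (adjusted p = 0.00113). Cdkn2c changed by 0.04 (-0.24 to 0.317). In all, 3 of 6 genes passed, where 53.4% of all genes did, and 1 was also past 2-fold, where 7.19% were. Called against each of the 4 controls in the same direction were 0 of the 6 genes and 3.23% of all genes. The median over the 6 genes was 0.173.

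The lists around these members moved unevenly in siSbp2l. S phase and mitosis genes were lower in 14 of 22 cases and higher in 2 (median -0.611, where 17.9% of all genes were lower and 35.5% higher), led by the topoisomerase Top2a (-1.52), Ccnb1 (-1.36) and Mki67 (-1.22), while the replication helicase genes Mcm7 (0.58) and Mcm6 (0.51) rose. Mki67 averaged 0.640 FPKM, near the NC siRNAs (0.794 and 1.62) and far from mock (5.87). Of 12 Rb and E2F genes 6 fell, among them E2f8 (-1.31), Rbl2 (-1.11) and Tfdp2 (-0.86), an E2F partner, and 2 rose, Rbl1 (0.53) and Tfdp1 (0.31). Among 13 other G1 genes 5 rose and 4 fell. Skp2 (0.73), the phosphatase gene Cdc25a (0.59) and Fbxw7 (0.46), which marks cyclin E for degradation, were higher, and Cdk7 (-0.76), Ccne2 (-0.50) and Ccne1 (-0.45), the E-type cyclins, were lower.

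Of 13 transcription factors 9 rose in siSbp2l, 69.2% against 35.5% of all genes. Hes1, a Notch target and known repressor of Cip/Kip genes, went from between 1.35 and 2.20 FPKM in the control groups to 9.62 (1.94), Jun, a known activator of Ccnd1, from between 41.2 and 50.9 to 116 (1.30), and Myc from between 9.74 and 24.4 to 41.4 (1.18). Tcf7l2 was lower by 0.21 against the mean of the 4 controls (adjusted p = 0.0269 in limma), at 46.5 FPKM. That level was close to the NC siRNAs (47.9 and 50.2) and further from non-treated (59.0) and mock, which was near non-treated. The NC siRNAs were themselves lower in Tcf7l2 than the groups without siRNA (-0.274, adjusted p = 0.00891). The paper reports the Tcf7l2 transcript as unchanged in this knockdown and the Tcf7l2 protein as reduced. Its cut for changed genes here was 2-fold, above the change given for Tcf7l2. By PCR it also reports that forced Tcf7l2 expression partly rescued changed transcripts of the knockdown, Ccnd1 and Jun among them. Listed p53 targets again had no single direction beside the fall of Cdkn1a. Btg2 (1.57, to 16.8 FPKM, near its 17.2 at Day0), Sesn2 (0.71) and Sesn1 (0.58) rose, and Phlda3 (-0.68), Zmat3 (-0.51) and Ccng1 (-0.42) fell, in all 5 higher and 3 lower of 13. The oligodendrocyte list was lower in 7 of 8 genes in siSbp2l, with only Mal higher, and at Day0 Cdkn1a and that list were both low. Elsewhere their directions were mixed. In siSbp2l against siPdgfra, 4 of 8 list genes were lower and 1 higher, with Cdkn1a at -1.56. In siPdgfra against the mean, 5 of 8 were lower and 1 higher, with Cdkn1a at 0.47. In the NC siRNAs against no siRNA, 3 of 8 were lower and 1 higher, with Cdkn1a at 0.85. In NC siRNA #1 against NC siRNA #2, 5 of 8 were higher and 1 lower, with Cdkn1a at -0.67. In siSbp2l against the mean 3 of 4 astrocyte genes were lower and 1 higher, and 3 of 3 neuron genes were higher (summed level 200 to 202 FPKM). Of 7 precursor genes 2 were higher and 1 lower (median -0.00602). Among them Pdgfra averaged 147 FPKM against 32.5 to 67.4 in the control groups, and Gpr17 93.6 against 174 to 211. The part of these lists in the changes of Ccnd1, Cdkn1a and Cdkn1b was not tested.

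With siPdgfra the largest change among the members was that of Ccnd3. It measured 208 and 174 FPKM, above every other library of the series, of which the nearest was NC siRNA #2 at 120.3. Against the mean of the 4 controls it rose 2.68-fold (1.42, SE 0.187, adjusted p = 0.00015), and it passed against each one, by 1.85 (non-treated), 1.70 (mock), 1.47 (NC siRNA #1) and 0.66 (NC siRNA #2, adjusted p = 0.0433). Ccnd1, at 18.8 FPKM in both libraries, rose by 0.72 (adjusted p = 2.73e-05), but it stood inside the mock range of 18.8 to 19.96 and changed by -0.04 against mock (95% interval -0.249 to 0.171, adjusted p = 0.762), by 0.27 against non-treated (adjusted p = 0.0353) and by 1.03 and 1.61 against the NC siRNAs.

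Cdkn1a measured 59.0 and 50.6 FPKM with siPdgfra, between the 2 NC siRNAs and above non-treated and mock. It rose by 0.47 against the mean (adjusted p = 0.00609), by 0.98 with non-treated cells and 0.81 with mock as the control. For the NC siRNAs the changes were 0.38 (#1, adjusted p = 0.0538) and -0.29 (#2, adjusted p = 0.125). Its call against the mean was lost without siPdgfra replicate 1 (0.359, adjusted p = 0.0925) and against the mean of the 3 controls other than non-treated (0.298, adjusted p = 0.0556). Cdkn1b, at 65.2 and 61.7 FPKM, lay above all 8 controls and rose by 0.32 (adjusted p = 0.00229), with 0.15 against NC siRNA #2 (adjusted p = 0.175). Cdk4 (0.04, 95% interval -0.262 to 0.348) and Cdkn2c (0.16, -0.121 to 0.436) did not pass. In all, 4 of 6 genes passed, where 55.4% of all genes did, and 1 was also past 2-fold, where 7.99% were. Called in the same direction against each of the 4 controls were 0 of the 6 genes and 3.61% of all genes. The median over the 6 genes was 0.394, and over all genes 0.0891.

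Cell cycle genes beyond the members were mostly higher in siPdgfra than in the mean of the controls. Over all genes 32.4% were higher and 23.0% lower in this comparison. S phase and mitosis genes were higher in 17 of 22 cases and lower in 0 (adjusted p under 0.05 in limma, median 0.589), among them Cdk1 (0.98), Ccna2 (0.88) and Birc5 (0.84). Their levels were close to those of non-treated and mock: Cdk1 averaged 5.42 FPKM in siPdgfra, 3.86 in non-treated, 4.83 in mock and 0.597 and 1.53 with the NC siRNAs. The E-type cyclins Ccne2 (1.06) and Ccne1 (0.82) and Cdc25a (0.97) led the 7 of 13 other G1 genes that rose, and Cks1b (-0.48) was the 1 that fell. Of 12 Rb and E2F genes 5 rose, led by E2f7 (0.93), the repressor E2f6 (0.82) and Tfdp1 (0.64), and 2 fell, E2f8 (-0.53) and Rbl2 (-0.30). Among 13 transcription factors 4 rose and 5 fell. Mycn rose from between 0.972 and 2.72 FPKM in the controls to 9.86 (2.09), with Myc (0.64) and Jun (0.48). Tcf7l2 (-1.04, to 25.8 FPKM), Ctnnb1, which encodes beta-catenin (-0.67), and the Myc partner Max (-0.60) fell. Of 13 p53 targets Plk2 (0.80), Bbc3 (0.69), Aen (0.66) and 2 more rose, and Trp53inp1 (-0.72) and Sesn1 (-0.47) fell. Marker lists moved too: 4 of 4 astrocyte genes (median -1.37), 5 of 7 precursor genes, Pdgfra itself being on that list, and 5 of 8 oligodendrocyte genes were lower, and 2 of 3 neuron genes were higher (summed level 236 to 240 FPKM). Their part in the changes of Ccnd3, Cdkn1a and the S phase and mitosis genes was not tested. Of the other Cdk inhibitors, 0 of the 2 tested passed in either knockdown in limma, and the values of Cdkn2a were 0.32 (adjusted p = 0.153) in siSbp2l and -0.16 (adjusted p = 0.459) in siPdgfra.

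**Figure D4:**
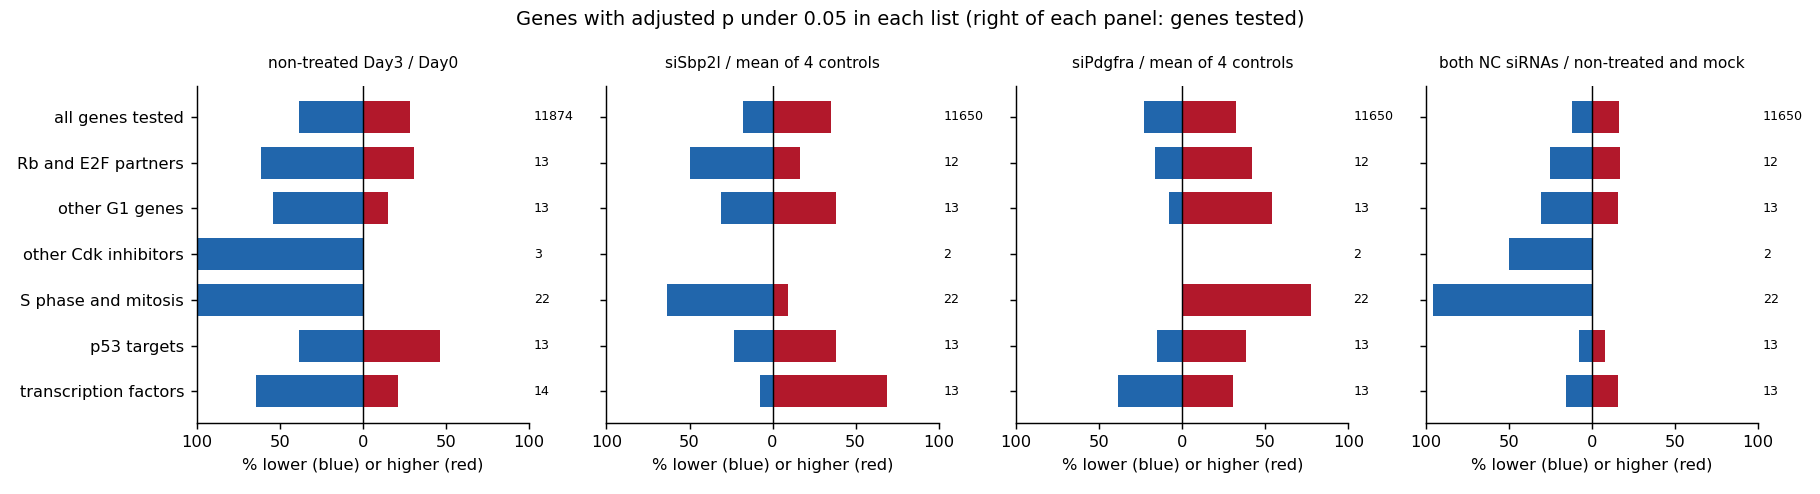
Percent of the genes tested in each list, and in all genes, that were higher (red, to the right) or lower (blue, to the left) at adjusted p under 0.05 in 4 comparisons, with the number tested at the right. The S phase and mitosis list is lower in all 22 genes in non-treated cells against Day0, in 21 of 22 with the NC siRNAs and in 14 of 22 with siSbp2l, and higher in 17 of 22 with siPdgfra.

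Set directly against each other, the knockdowns differed in 3 of the 6 genes, where 52.0% of all genes passed. Cdkn1a was 2.94-fold lower in siSbp2l than in siPdgfra (-1.56, SE 0.144, adjusted p = 1.53e-05) and Ccnd3 2.41-fold lower (-1.27, SE 0.236, adjusted p = 0.00136). Both were past 2-fold, where 13.7% of all genes were. Cdkn1b was 1.41-fold higher (0.50, adjusted p = 0.000645). Ccnd1 differed by 0.11 (95% interval -0.0984 to 0.322, adjusted p = 0.349), Cdk4 by 0.15 (-0.237 to 0.535) and Cdkn2c by -0.12 (-0.471 to 0.234), so that a difference of more than about 1.5-fold in any of these 3 lay outside its interval.

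The make-up of the D-type cyclins turned over between Day0 and Day3, as the plot of shares shows. Ccnd1 made up 85.8% and 88.0% of the summed FPKM of the 3 genes at Day0, and Ccnd3 71.7% to 95.6% in the Day3 libraries. The Ccnd1 share was 18.5% and 27.8% in non-treated, 25.8% and 24.3% in mock, 11.9% and 10.8% with NC siRNA #1, 4.33% and 4.39% with NC siRNA #2, 20.9% and 20.4% in siSbp2l and 8.31% and 9.74% in siPdgfra. The sum of the 3 fell from 383 and 345 FPKM at Day0 to between 52.3 and 126 in the controls, and stood at 95.5 and 102.5 in siSbp2l and 226 and 193 in siPdgfra. Set against Cdk4, that sum was 1.01 times the Cdk4 level in both Day0 libraries, 0.29 to 0.504 times in the controls, 0.366 and 0.378 times in siSbp2l and 0.897 and 0.849 times in siPdgfra. The ratio of Cdkn1b to Cdkn1a was 5.17 and 4.86 at Day0 and 5.17 and 4.89 in siSbp2l, and between 0.826 and 2.09 in the other 10 libraries. In siSbp2l both inhibitors were higher than at Day0, so the like ratio came from other levels. These shares and ratios are descriptions of the values tested above. Their absolute size depends on the exon length used for each gene. The union of GENCODE exons was 3.88 times that length for Ccnd3, 2.41 for Cdk4, 1.89 for Cdkn1b, 1.75 for Cdkn1a and 1.24 for Ccnd1. The overlap of Ccnd3 with Bysl can bear on its shares too.

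**Figure D5:**
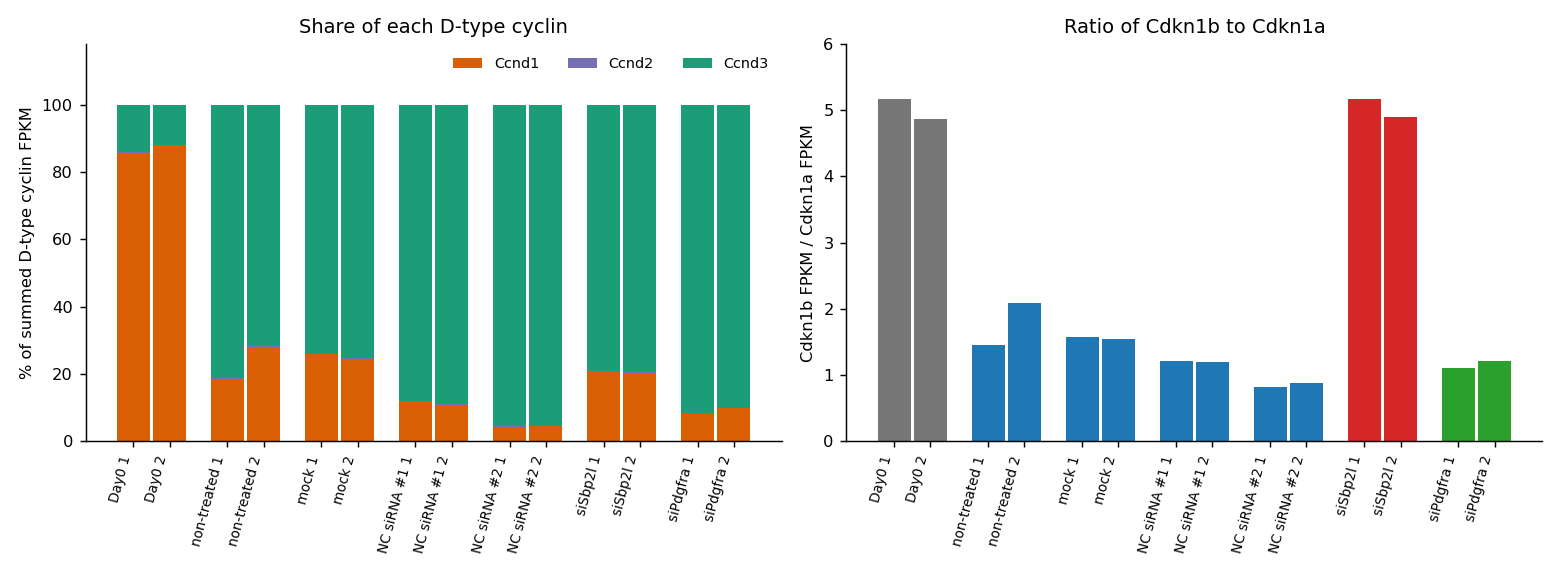
Left, percent of the summed FPKM of Ccnd1, Ccnd2 and Ccnd3 held by each in the 14 libraries. Right, ratio of Cdkn1b to Cdkn1a FPKM in the same libraries. Ccnd1 holds over 85% at Day0 and at most 27.8% at Day3, and the ratio is near 5 only at Day0 and in siSbp2l.

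Compared with Day0, both knockdowns had lower Ccnd1, Cdkn2c and Cdk4 and higher Cdkn1a, as non-treated and mock cells did, and also higher Cdkn1b and Ccnd3. The NC siRNAs were not tested against Day0. Ccnd3 averaged 68.2 FPKM with NC siRNA #1 and 120.1 with NC siRNA #2, against 47.5 at Day0, so a mean above Day0 was not particular to the knockdowns. Cdkn1b averaged 50.3 with NC siRNA #1 and 57.2 with NC siRNA #2, against 51.5 at Day0. For Cdkn1b only NC siRNA #2 thus lay above Day0, and it stayed below siPdgfra (63.4) and siSbp2l (90.0). In siSbp2l all 6 genes passed, where 65.4% of all genes did: Ccnd1 fell by 3.89, Cdkn2c by 1.49 and Cdk4 by 0.44 (adjusted p = 0.038), and Cdkn1b (0.79, adjusted p = 7.66e-06), Cdkn1a (0.75, adjusted p = 0.000577) and Ccnd3 (0.73, adjusted p = 0.0198) rose. Past 2-fold were 2 of them, where 22.8% of all genes were. The call of Ccnd3 was lost without Day0 replicate 2 or either siSbp2l library (adjusted p up to 0.146). That of Cdk4 was lost without any 1 of the Day0, siSbp2l, mock and NC siRNA libraries (0.0526 to 0.17) and with no filter on low values (0.0587). In siPdgfra all 6 passed as well, where 67.8% of all genes did: Cdkn1a rose 4.94-fold (2.31, adjusted p = 5.9e-08), Ccnd3 3.98-fold (1.99, adjusted p = 2.01e-05) and Cdkn1b by 0.30 (adjusted p = 0.00841), and Ccnd1 fell by 3.999, Cdkn2c by 1.37 and Cdk4 by 0.59 (adjusted p = 0.00882). Past 2-fold were 4, where 27.7% of all genes were. The call of Cdk4 was lost without Day0 replicate 1 (adjusted p = 0.0595) or siPdgfra replicate 2 (0.0588), and that of Cdkn1b without Day0 replicate 2 (0.095) or siPdgfra replicate 1 (0.0541). All Day0 comparisons share the same 2 Day0 libraries.

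Ranked by mean level at Day3, Ccnd1 ran from siSbp2l (20.4 ± 0.697 FPKM, SD, n = 2), mock (19.4 ± 0.826) and siPdgfra (18.8 ± 0.00714) through non-treated (15.4 ± 1.27) to NC siRNA #1 (8.70 ± 0.372) and NC siRNA #2 (5.49 ± 0.0782). No test among the first 3 groups passed. Cdkn1a ran from NC siRNA #2 (67.1 ± 1.49) and siPdgfra (54.8 ± 5.97) through NC siRNA #1 (41.8 ± 1.39), mock (30.8 ± 0.52) and non-treated (27.6 ± 6.7) to siSbp2l (17.9 ± 0.34), and here mock and non-treated overlapped and siPdgfra did not pass against either NC siRNA. Ccnd3 ran from siPdgfra (190.9 ± 23.6) and NC siRNA #2 (120.1 ± 0.267) to siSbp2l (78.5 ± 4.25), NC siRNA #1 (68.2 ± 8.11), mock (57.8 ± 0.723) and non-treated (54.6 ± 24.2), with overlap between non-treated and both neighbours above it. Cdkn1b ran from siSbp2l (90.0 ± 1.79) and siPdgfra (63.4 ± 2.49) to NC siRNA #2 (57.2 ± 1.23), NC siRNA #1 (50.3 ± 0.706), mock (48.1 ± 1.12) and non-treated (47.3 ± 0.63), the last 2 overlapping. Ccnd1 and Cdkn1a thus ran in opposite order over the 4 control groups apart from the order of mock and non-treated.

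The genes whose levels ran most closely with 2 of the members were sought among 8248 genes by the correlation of log2(FPKM + 1) over the 14 libraries. For Ccnd1 the closest was Mcm6, a subunit of the replication helicase (r = 0.9901), which went from 100 FPKM at Day0 to 8.70 in non-treated, 9.16 in mock, 5.91 and 5.14 with the NC siRNAs, 10.5 in siSbp2l and 8.92 in siPdgfra. Within the 12 Day3 libraries r was 0.975. Next came Cdca7 (0.987) and AI506816 (0.9867), with 0.896 and 0.894 within Day3. For Cdkn1a they were Ehd4 (0.9626), March2 (0.9559) and Slc25a44 (0.9556), with 0.921, 0.907 and 0.931 within Day3. Ehd4, of the membrane traffic family of EHD proteins, measured 5.20 FPKM at Day0, 10.7 in siSbp2l and 43.6 in siPdgfra. The libraries share groups of 2, so these values describe a likeness between group levels. Ccnd2 and Cdkn1c were too low to be compared.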

How the data were processed

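RNA-seq of 14 cultures in 7 groups of 2 was used. Per the labels and the study's methods, libraries were made with a stranded TruSeq mRNA kit from cultures of mouse cortical precursors and mapped to mm10 with refGene models. The authors deposited FPKM per gene (the strand setting of counting is not given in the sources used here), and that table was used as deposited. A second deposited table with fold changes and p-values of the authors' own comparisons of siSbp2l with each control was used for gene annotation only. Groups and replicates came from the sample labels, and 0 columns belonged to other samples. The methods call the replicates independent, and cultures of one preparation could share animals, so p-values measure the spread between these libraries.

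The tests were fitted to log2(FPKM + 1) with limma (version 3.58.1, under R 4.3.3), with 1 mean per group and trend and robust variance moderation, since the planned count model needs counts. Genes with at least 1 FPKM in 2 fitted libraries were kept. Comparisons with Day0 used all 14 libraries (11874 genes, 7 residual degrees of freedom), and the others the 12 Day3 libraries (11650 genes, 6). "Passed" means Benjamini-Hochberg adjusted p under 0.05 over all genes tested, and "past 2-fold" or "called" at least 2-fold as well. The fit was tested on simulated data. Fragments were worked back from FPKM, exon length and the library total at which low genes with 1 transcript gave whole numbers, which held for 88.81% to 92.5% of values within 0.1. Limits at 0 use 3 fragments.

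Named genes were the 9 members, up to 3 genes per direction and list with the largest change past adjusted p 0.05 in 3 comparisons (non-treated against Day0 and each knockdown against the mean of the 4 controls), the 3 closest genes to Ccnd1, Ccnd2, Cdkn1a and Cdkn1c, and the 2 targeted genes. Members and lists were chosen with earlier results of these data known. Other genes are named as examples with their levels. Alternatives were a pseudocount of 0.1, no filter, median-ratio and upper-quartile scaling, a fit of the compared groups alone, a replicate block, leaving out each library, the mean of the 3 controls other than non-treated and, added after seeing the data, mock alone for the NC siRNAs. Motifs were searched on both strands. Analysis used pandas 2.3.3, numpy 2.4.6 and matplotlib 3.10.9.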

Additional observations from a re-analysis of the deposited data

Results flagged for a closer look

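The effects of the 2 knockdowns differed by the direct test of siSbp2l against siPdgfra in 2 members past 2-fold. Cdkn1a differed by -1.56 on the log2 scale (SE 0.144, adjusted p = 1.53e-05 in limma), with 17.7 and 18.1 FPKM in siSbp2l and 59.0 and 50.6 in siPdgfra, and -1.67 to -1.45 over 19 settings. Ccnd3 differed by -1.27 (SE 0.236, adjusted p = 0.00136), with 75.5 and 81.5 FPKM against 208 and 174, and -1.39 to -1.14 over the same number of settings. For both genes all settings kept adjusted p under 0.05, the highest being 0.000393 for Cdkn1a and 0.0165 for Ccnd3.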

How the results depend on the processing

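Of 1038 recomputed changes of single members, 968 kept their direction and their side of adjusted p 0.05, 39 kept the direction and lost the call, 14 gained one and 17 turned. All that turned had missed adjusted p 0.05 from the start. The direction could not turn with no filter, the replicate block, a fit of the compared groups alone or without a library of another group. Those settings leave the change itself as it was, so part of the 968 could move in adjusted p only. Median-ratio scaling turned Cdkn1b in non-treated against Day0 (0.00348), Ccnd3 (-0.0146) and Cdkn2c (-0.106) in siSbp2l and Cdk4 (-0.0611) in siPdgfra, and upper-quartile scaling turned Cdkn2c in siSbp2l (-0.0264) and Cdk4 in siPdgfra (-0.0516), each against the mean of the 4 controls. Over the fits without 1 library, Ccnd3 in non-treated against Day0 ran from -0.319 to 0.598, Cdkn2c in siSbp2l against the mean from -0.0668 to 0.145, Cdk4 in siPdgfra against the mean from -0.0367 to 0.122, Cdkn2c in siSbp2l against siPdgfra from -0.265 to 0.028, Cdkn2c between the 2 NC siRNAs from -0.0763 to 0.163, and, in the NC siRNAs against no siRNA, Cdk4 from -0.234 to 0.084 and Cdkn2c from -0.0202 to 0.155. The number of members with adjusted p under 0.05 moved by over 1.5 times in 3 comparisons. It was 5 between the NC siRNAs when these groups alone were fitted and ran from 1 to 5 there without single libraries, 5 without either non-treated library and the lone gene remaining without NC siRNA #1 replicate 1 or NC siRNA #2 replicate 1. It ran from 3 to 5 in siSbp2l against the mean (5 without non-treated replicate 1) and from 3 to 5 in the NC siRNAs against no siRNA (5 without non-treated replicate 2). Within 1.5 times, it ran from 3 to 5 in non-treated and in mock against Day0, from 4 to 6 in siSbp2l and from 5 to 7 in siPdgfra against Day0 and from 3 to 4 in siPdgfra against the mean. With no filter on low values Ccnd2, Cdk6 and Cdkn1c were tested as well, so a count there can exceed the 6 genes of the main fit. Beyond that, the cause was not tested. The number past 2-fold stayed within 1.5 times in every comparison and alternative.

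Scaling also moved the split of all called genes. In siSbp2l against the mean 43.3% of calls were higher as deposited, 25.4% after median-ratio and 34.6% after upper-quartile scaling, and in siPdgfra 49.6% as deposited, 38.8% after median-ratio scaling and 380 of 949 calls after upper-quartile scaling. Cdkn1a, Cdkn1b and Ccnd1 in siSbp2l and Ccnd1, Ccnd3 and Cdkn1b in siPdgfra, each against the mean, passed in all 20 settings, with changes of -1.26 to -1.03, 0.65 to 0.839 and 0.669 to 0.98, and of 0.621 to 0.869, 1.28 to 1.55 and 0.218 to 0.36. All of these settings kept both NC siRNAs in the mean of the controls. Against mock alone Ccnd1 changed by 0.07 in siSbp2l (adjusted p = 0.563 in limma) and by -0.04 in siPdgfra (adjusted p = 0.762). Cdk4 in non-treated against Day0 kept its value (-0.713) but not its call when those 2 groups alone were fitted (adjusted p = 0.0783). Replicate numbers did not pair the libraries in a common direction. Deviations from group means correlated over 0.1 in 4 of 21 pairs of groups (r from -0.38 to 0.473). Some pairs were negative, as siSbp2l with siPdgfra (-0.358), and a spread shared under another order of the replicates was not tested. The replicate block gave 838 called genes in siSbp2l and 930 in siPdgfra against the mean. Each group holds both replicate numbers, so the block leaves every change as it was and moves only its adjusted p. With it each member kept its side of adjusted p 0.05 in all 9 comparisons.

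Depth limits Ccnd2, Cdk6 and Cdkn1c, which rest on at most about 120, 4 and 15 fragments, and Cdkn2c at Day3 (about 38 to 168). With 2 libraries a group, the tests lean on a spread shared over all groups.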
